A study of Drosophila melanogaster with 14 samples.

Results

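Sex-biased expression was examined within the Drosophila melanogaster mutant sesB1, as 4 arrays of sesB1 females against 4 arrays of sesB1 males, 8 of the 14 arrays of the study. The members were chosen by genotype and sex as the labels give them and by no measured value. sesB1 is an allele of the X-linked gene sesB, which encodes the main adenine nucleotide translocase, the inner-membrane protein that exchanges ADP for ATP between cytosol and mitochondria. sesB1 females were homozygous and sesB1 males hemizygous F1 flies of a cross between virgin sesB1 females of a Canton S background and sesB1 males of an Oregon R background, after more than 10 generations of backcrossing by the study's methods. The 3 arrays of wild-type females and 3 of wild-type males, F1 flies of Canton S mothers and Oregon R fathers, share no array with the sesB1 comparison and serve as the same contrast without the mutation. All groups were reared at 25 °C, the females were virgins, and total RNA came from whole flies. Their age is 2 days by the labels and the methods and 1 day by the description of the series. Each group therefore mixes gonads, glands and soma, and fewer cells of a type cannot be told apart from less RNA per cell.

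In the fly, sex is set in each cell by a splicing cascade that runs from Sxl through tra to dsx, and most sex-biased transcripts of a whole adult come from tissues that only 1 sex has. Females carry ovaries, in which nurse cells and follicle cells supply the egg with maternal RNA, yolk and an eggshell, and spermathecae that secrete proteases around stored sperm. Males carry testes, with their own copies of many proteasome, ribosomal and mitochondrial genes, and accessory glands that make the seminal fluid peptides.

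Signal was deposited on the log2 scale, with the median of the 14 arrays taken off for every probeset. Such values give differences between arrays and no brightness, so levels of different genes cannot be compared. A difference below is always the mean of females minus the mean of males on this log2 scale, with its standard error (SE), and was called when limma's p-value, adjusted by Benjamini-Hochberg over 18769 probesets, was under 0.05 and the difference was at least 2-fold. The interaction is the sesB1 difference minus the wild-type difference, from a fit of all 14 arrays, and was called by the same rule. The p-values measure the spread between the arrays of a group, which the titles name as biological replicates. For each gene a single probeset was used.

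Arrays of sesB1 females correlated with each other at r from 0.855 to 0.957 and arrays of sesB1 males at r from 0.951 to 0.976. Some arrays held transcripts typical of the other sex. Yp1, which encodes a yolk protein made in the female fat body and ovary, read 0.89, 0.94, 0.97 and 1.03 in sesB1 females and -8.92, -8.92, -8.82 and -2.40 in sesB1 males. The fourth male array thus stood far above the other males and still below every female array. Cp36, a major chorion protein, read 1.76, 1.20, 0.67 and 1.85 in sesB1 females and -7.02, -6.74, -6.61 and -6.63 in sesB1 males, so the fourth male array did not stand apart for the chorion gene. Acp53Ea, an accessory gland peptide, read -6.93, -4.83, -7.04 and -2.14 in sesB1 females, against 2.29, 2.28, 2.22 and 2.14 in sesB1 males. Female arrays 4 and 2 were high for this male transcript and for others of the gland and of the testis. Wild-type male array 2 was high for Yp1 (-0.89, against -8.81 and -9.10 on the other wild-type male arrays) and for Cp36 (-0.67, against -6.63 and -6.64). For some results, and not for all, the value without these arrays is given below. That value leaves out sesB1 female arrays 2 and 4, sesB1 male array 4 and, for the interaction, wild-type male array 2. That setting keeps only sesB1 female arrays 1 and 3, so array 3 weighs more in it. Array 3 had the lowest chorion median of the sesB1 females, 0.69 against 2.18 to 2.72.

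**Figure D1:**
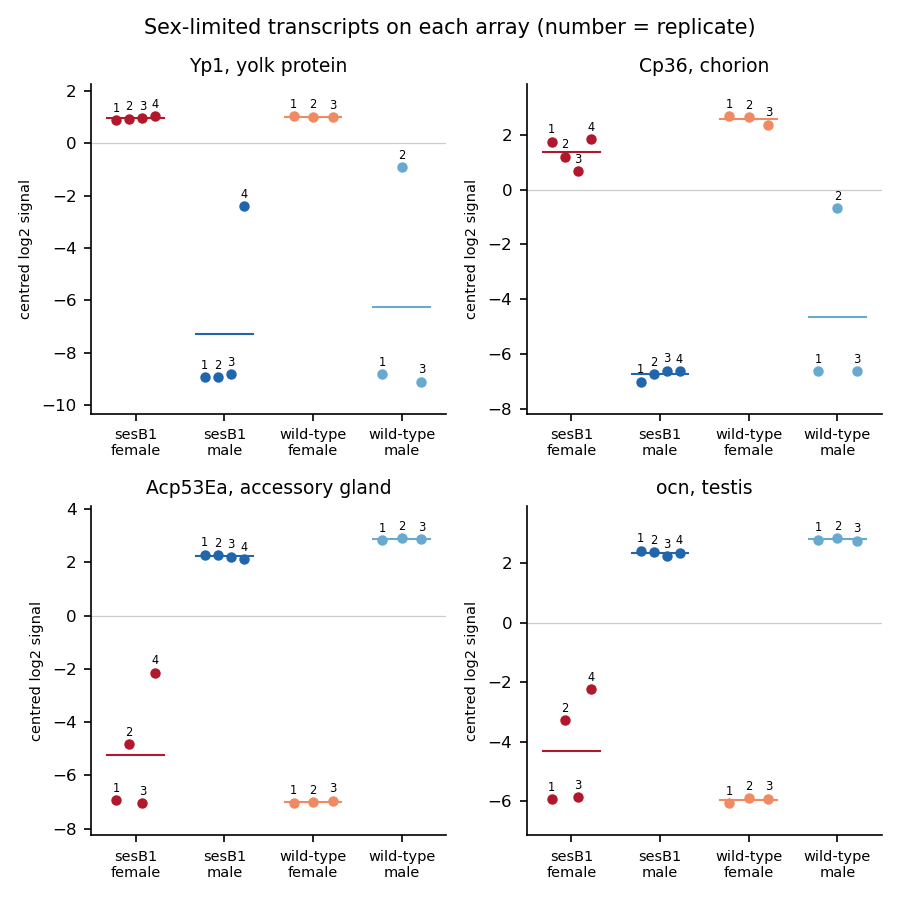
Centred log2 signal (vertical axis) of a yolk protein, a chorion protein, an accessory gland peptide and a testis transcript on each of the 14 arrays, by group along the horizontal axis. Points are arrays with their replicate number and lines are group means. Yp1 was at -2.40 on sesB1 male array 4 and Acp53Ea at -2.14 on sesB1 female array 4, while the sexes did not overlap for any of the 4 genes within sesB1.

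Of 18769 probesets, 2280 were higher in sesB1 females (12.1%) and 2021 were lower (10.8%). In wild-type flies 3398 were higher in females (18.1%) and 2643 lower (14.1%). With 1 probeset for each of 11981 genes, 1916 genes were higher (16%) and 1792 lower (15.0%) in sesB1 females, against 2847 higher (23.8%) and 2267 lower (18.9%) in wild-type females. These gene shares are the background for every list below. Of the 4301 probesets called in sesB1, 95.9% were called in the same direction in wild type, and of the 6041 called in wild type, 68.3% were called in the same direction in sesB1. The median of all sesB1 differences was 0.17, so the distribution as a whole sat slightly above 0.

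The interaction was called for 387 probesets as more positive in sesB1 (2.06%) and 362 as more negative (1.93%), or 327 (2.73%) and 315 genes (2.63%). Of the 749 probesets, 358 were sex-biased in the same direction in both genotypes with the smaller difference in sesB1, and 17 with the larger one. A further 265 were called in wild type and not in sesB1, and 41 in sesB1 and not in wild type. The lower number of sex-biased probesets in sesB1 depended on the scaling. After quantile normalization, which forces the same spread on every array, 4887 probesets were called in sesB1 and 5078 in wild type, against 4301 and 6041 as deposited. By it 192 positive and 210 negative interactions were called. The SD of a deposited array was 1.01 to 1.05 in wild-type and 0.72 to 0.85 in sesB1 females. In males it was 0.76 to 0.85 and 0.68 to 0.75. Equal spread is an assumption here, and a general reduction in sesB1 would be removed by it.

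**Figure D2:**
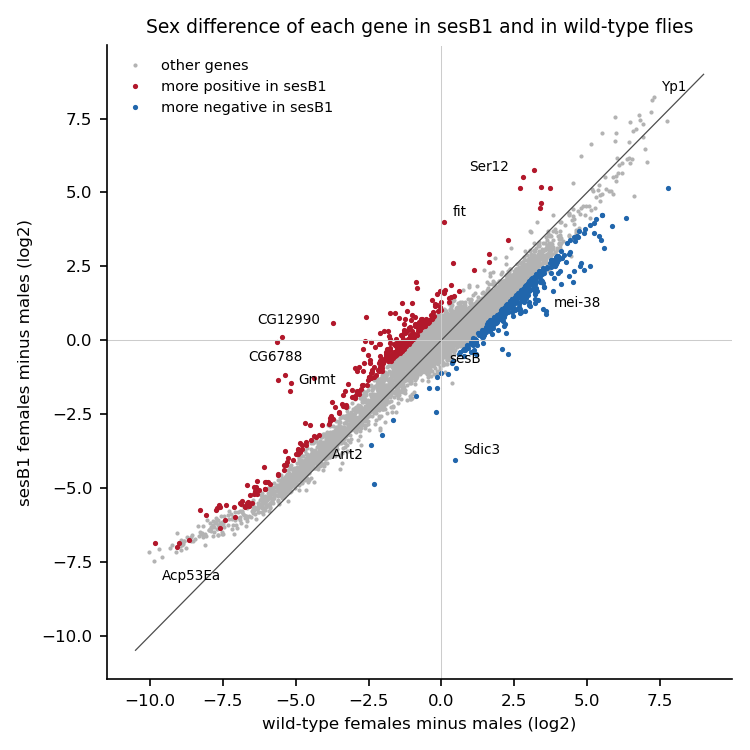
Each point is a gene, with its female minus male difference in sesB1 flies (vertical axis, log2) against that in wild-type flies (horizontal axis, log2), and the diagonal marks equal differences. Red and blue points are the 327 genes called as more positive and the 315 as more negative in sesB1, and CG12990 and CG6788, at 5.59 and 5.57, lie farthest from the diagonal.

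The split by size moved with the scaling. In sesB1, 554 genes were at least 4-fold higher in females and 1348 at least 4-fold lower, against 1114 and 1481 in wild type. At 64-fold the counts were 25 and 91 genes in sesB1, against 27 and 203 in wild type. After quantile normalization the counts at 4-fold were 1104 and 1312 in sesB1, against 1133 and 1230 in wild type, and at 64-fold 60 and 40 in sesB1, against 36 and 39 in wild type. The number of genes that stood at least 64-fold lower in sesB1 females was 150 without the arrays that stand apart. The count at the far male end thus rested in part on those arrays.

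Classes chosen in 1 genotype were read in the other, since a class falls back toward 0 when it is read on arrays that did not choose it. The 433 probesets with an 8-fold or larger female excess in wild type had a median difference of 2.90 in sesB1, against 3.64 in wild type, and 431 of them were called in sesB1. The 1236 with a male excess of that size had a median of -4.24 in sesB1, against -4.67 in wild type, and 1233 were called. Chosen on the sesB1 arrays instead, 205 female-high probesets had a median of 3.88 in sesB1 and 4.47 in wild type, and 1118 male-high probesets -4.36 in sesB1 and -4.81 in wild type. Both classes therefore were smaller in sesB1 whichever genotype chose them. Of the 433, 128 had a called negative interaction and 5 a positive one. That count uses the wild-type arrays that chose the class, which favours negative calls. Of the 205 chosen on sesB1 arrays, 27 had a negative and 11 a positive one, and there the choice favours positive calls. The median of the 433 probesets lay at 1.43, 1.41, 1.06 and 1.67 on the sesB1 female arrays and between -1.56 and -1.45 on the sesB1 male arrays, against 2.20 to 2.31 in wild-type females and -1.63 to -1.11 in wild-type males. The sesB1 and wild-type females did not overlap. Among the males the overlap rested on wild-type male array 2, at -1.11, since the other wild-type males, at -1.63 and -1.62, lay below all sesB1 males. After quantile normalization the order turned, with medians of 4.42 in sesB1 and 4.09 in wild type for the same 433 probesets, and of -3.46 and -3.42 for the 1236. Since this scaling removes any general difference in spread between arrays, it cannot settle whether a class as a whole was smaller.

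**Figure D3:**
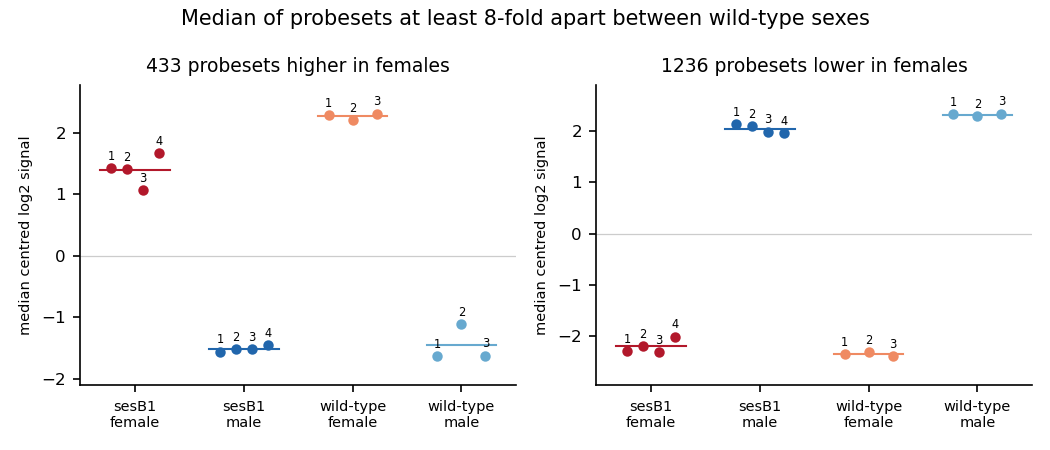
Median centred log2 signal (vertical axis) of the 433 female-high probesets (left) and the 1236 male-high probesets (right) chosen at 8-fold on the wild-type arrays, on each array by group. For the female-high class the sesB1 females lie between 1.06 and 1.67, below the wild-type females at 2.20 to 2.31.

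Of 16 members of a list of sex determination and dosage compensation genes, 5 were higher in sesB1 females (otu, ovo, msl-1, tra and fl(2)d) and 1 lower, against 7 and 1 in wild type, and no interaction was called for the probesets used. Without the arrays that stand apart 2 negative interactions were called. otu, required for oogenesis, read 2.30, 2.35, 1.93 and 2.70 in sesB1 females and -4.67, -4.73, -4.75 and -3.41 in sesB1 males, a difference of 6.71 (SE 0.29, adjusted p = 5.83e-09) that compared with 6.46 in wild type. ovo, which encodes a germline transcription factor, differed by 3.90. dsx, the last gene of the cascade, is spliced differently in each sex, and its 2 probesets went in opposite directions. The first was lower in sesB1 females by -3.10 (SE 0.14) and the second higher by 3.86, against -3.73 and 2.84 in wild type for dsx, and the interaction of the second probeset, 1.02, was called. For msl-2, which drives dosage compensation in males, the difference was -0.29 and was not called.

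Yolk and eggshell genes gave the largest female excess. All 5 members of the yolk list, 7 of 7 chorion genes and 11 of 11 vitelline membrane and early eggshell genes were higher in sesB1 females. Yp1, Yp2 and Yp3, the yolk proteins, differed by 8.22 (SE 1.26), 7.62 and 7.16, and yl, the receptor that takes them up into the oocyte, by 5.26. The fifth member, the fat body gene fit, is described further on. Cp36 differed by 8.12 (SE 0.23, adjusted p = 2.67e-10), Cp38 by 7.74, Cp15 by 7.46 and Cp19 by 7.42. Vm26Aa, a vitelline membrane protein, differed by 7.38, and dec, an eggshell protein of the follicle cells, by 7.03. Cp19 read 2.46, 2.18, 0.69 and 2.72 in sesB1 females, and -5.23, -5.49, -5.67 and -5.23 in sesB1 males. Female array 3 was the lowest of the females for Cp36 and Cp19, and the sexes did not overlap.

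Set beside wild type, the order of the yolk and chorion medians turned without the arrays that stand apart. The chorion median was 7.42 in sesB1 and 7.06 in wild type, and no chorion interaction was called. Without wild-type male array 2 the wild-type median was 8.23. Without all 4 arrays the sesB1 median was 7.04, and 6 of 7 chorion genes had a called negative interaction, Cp38 at -1.69 and Cp36 at -1.20. The yolk median was 7.16 in sesB1 and 6.68 in wild type, and 7.98 in sesB1 and 8.24 in wild type without those arrays. The early eggshell median was 5.04 in sesB1 and 5.65 in wild type, and 5.04 and 6.54 without those arrays, but 6.10 in sesB1 and 5.79 in wild type after quantile normalization. Among these genes the interaction was called for 3 of 11, with psd (4.64 in sesB1, 3.41 in wild type) and ndl (4.47 and 3.38) larger in sesB1 and Femcoat (4.15 and 6.32) smaller. Without the arrays that stand apart 1 positive and 3 negative interactions were called, and after quantile normalization 2 positive ones and none negative. The chorion medians after quantile normalization were 7.89 in sesB1 and 6.52 in wild type, and the yolk medians 7.91 and 6.33. As deposited, the per-array chorion median was 0.69 to 2.72 in sesB1 females, below the 3.57 to 3.92 of wild-type females.

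Germline genes of the ovary were higher in sesB1 females in most lists. Of 23 genes of the piRNA pathway, which silences transposons, 17 were higher, against 19 in wild type, with medians of 2.43 in sesB1 and 3.10 in wild type. piwi, the nuclear Argonaute protein of the pathway, read 1.85, 1.89, 1.69 and 2.26 in sesB1 females and -2.63, -2.49, -2.50 and -2.35 in sesB1 males, a difference of 4.42 (SE 0.12, adjusted p = 1.65e-10). aub and tej, which act in the cytoplasmic arm, differed by 3.61 and 3.69. The piRNA interactions were below 0 for 20 of 23 genes, and 2 were called, krimp at -1.62 and squ at -1.12. Without the arrays that stand apart 6 were called, all negative. After quantile normalization 1 was called, and the order of the medians turned, 3.80 in sesB1 and 3.48 in wild type.

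Of 21 maternal axis patterning genes, 11 were higher in sesB1 females and 1 lower. osk, whose RNA sets up the posterior pole, differed by 7.33 (SE 0.52), and orb, a regulator of maternal RNA translation, by 6.01. The lower member was exu, which acts in RNA localization in the ovary and also has transcripts of the testis. Its first probeset differed by -6.10 and the other by -0.13, which was not called. Of 14 genes of germline stem cells and female meiosis, 7 were higher and 2 lower (corolla at -2.63 and bgcn at -2.33). mtrm, an inhibitor of Polo kinase in the oocyte, differed by 6.13, and c(3)G, a protein of the synaptonemal complex, by 3.29. In this list bam, nod and c(2)M had called negative interactions of -2.21, -1.45 and -1.08, and none of them was called after quantile normalization.

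DNA replication and mitosis genes formed the list with the most called reductions. Of 25 genes, 23 were higher in sesB1 females and 24 in wild-type females, with medians of 3.35 and 4.18, and all 25 interactions were below 0. CycB, a mitotic cyclin, differed by 6.15, gnu, a regulator of the early embryonic cycles, by 5.56, and Mcm5, a subunit of the replicative helicase, by 4.72. Mcm5 read 1.91, 1.95, 1.46 and 2.12 in sesB1 females and -2.94, -2.88, -2.99 and -2.63 in sesB1 males, against 3.06, 2.97 and 3.06 in wild-type females and -2.75, -1.46 and -3.05 in wild-type males. Each sesB1 female array lay below each wild-type female array for this gene, whose interaction of -0.73 was not called. In all 13 of the 25 interactions were called, Orc2 at -1.70, cid at -1.76 and Orc1 at -1.62 among them, and 21 without the arrays that stand apart. After quantile normalization none of them was called, with medians of 4.85 in sesB1 and 4.64 in wild type.

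**Figure D4:**
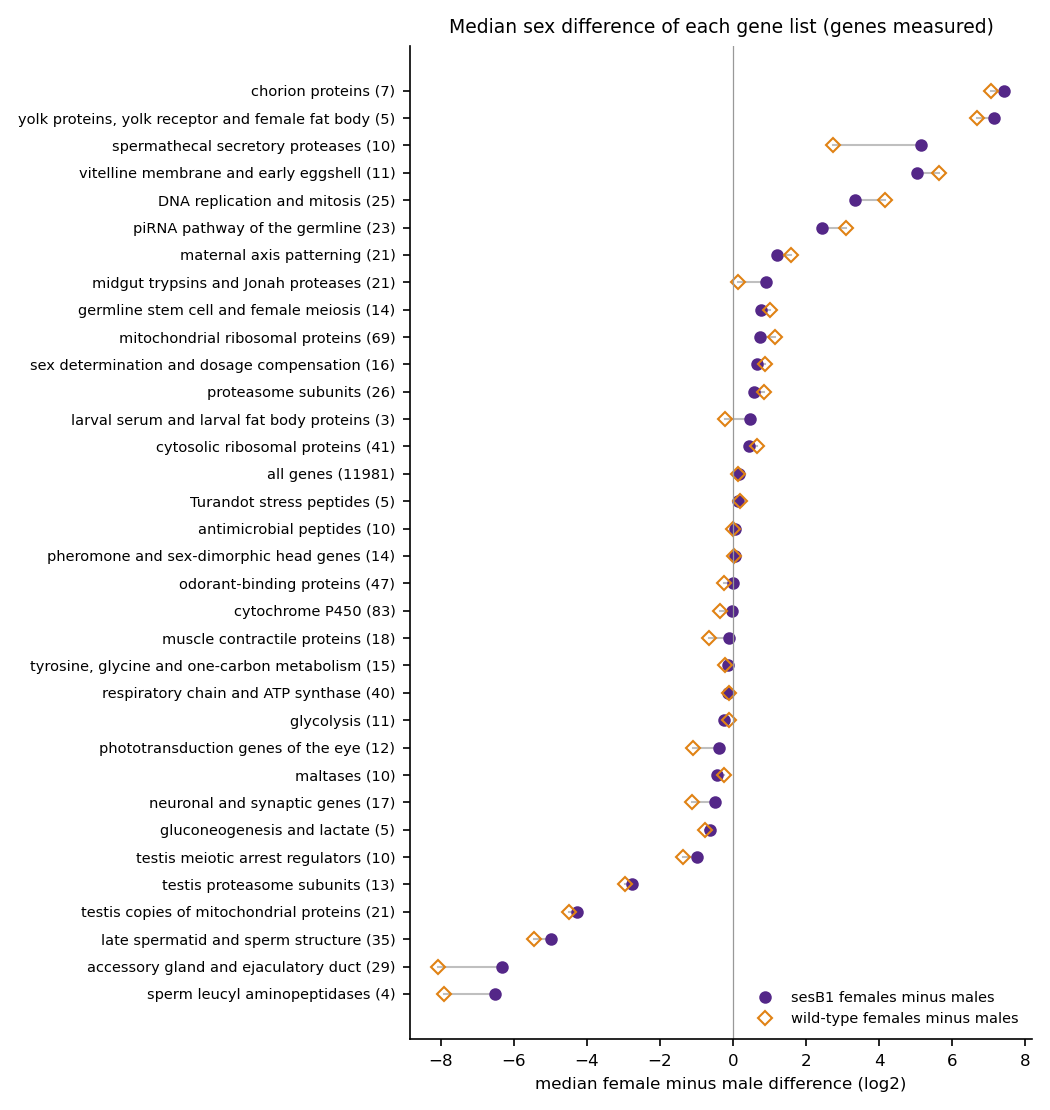
Median female minus male difference (horizontal axis, log2) of each gene list in sesB1 (filled circles) and in wild-type flies (open diamonds), with the number of genes measured in brackets. Spermathecal proteases (5.14 in sesB1, 2.75 in wild type) and midgut proteases (0.91 and 0.14) lie to the right of their wild-type values, and DNA replication genes (3.35 and 4.18) to the left.

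Of 35 late spermatid and sperm structure genes, 33 were lower in sesB1 females, with medians of -4.99 in sesB1 and -5.46 in wild type. The 1 member that was higher was uri, entered in the list through its older symbol ori, whose product is a prefoldin-like protein. ocn read -5.93, -3.26, -5.85 and -2.23 in sesB1 females and 2.42, 2.37, 2.23 and 2.35 in sesB1 males, a difference of -6.66 (SE 0.72). Mst84Da, a sperm tail protein, also differed by -6.66. For both genes female arrays 2 and 4 were the highest females, and without the arrays that stand apart the differences were -8.23 and -8.05. All 4 sperm leucyl aminopeptidases, abundant proteins of the sperm, were lower, S-Lap7 by -6.81. Among the late spermatid genes 3 positive interactions were called and 1 negative one, that of Sdic3. Without the arrays that stand apart 1 and 1 were called, and after quantile normalization 0 and 1, with medians of -4.34 in sesB1 and -4.05 in wild type.

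Testis copies of general cell machinery were lower in sesB1 females as well. All 21 testis copies of mitochondrial proteins were called, with medians of -4.27 in sesB1 and -4.49 in wild type, and COX4L, a copy of a cytochrome c oxidase subunit, differed by -5.97. Of 13 testis proteasome subunits 12 were called, Prosbeta5R1 at -4.88 (SE 0.08) and Prosalpha6T at -4.50, and Rpt3R had the 1 called interaction, -1.15, since its difference was -3.56 in sesB1 and -2.41 in wild type. The meiotic arrest genes, which switch on the spermatid program, were lower for 5 of 10, sa by -2.89, vis by -2.45 and topi by -1.60. No interaction was called for the mitochondrial copies, the sperm aminopeptidases or the meiotic arrest genes as deposited.

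Accessory gland and ejaculatory duct genes were strongly male-biased. Of 29 genes 27 were lower in sesB1 females, with a median of -6.32, against 28 and -8.07 in wild type. Acp53Ea differed by -7.47 (SE 0.89, adjusted p = 2.75e-05), Acp36DE, which aids sperm storage, by -7.33, EbpII, of the ejaculatory bulb, by -7.18, and Dup99B, a relative of the sex peptide, by -7.10. The interaction was above 0 for all 29 genes and called for 6. The per-array median of the list was -4.81, -3.61, -5.51 and -2.07 in sesB1 females and 2.29, 2.27, 2.13 and 2.06 in sesB1 males, against -5.42 to -5.09 in wild-type females and 2.81 to 2.88 in wild-type males. Female arrays 1, 2 and 4 lay above all wild-type females and array 3 below them, and the 4 sesB1 male arrays lay below all wild-type males. Without the arrays that stand apart the sesB1 median was -7.48, and 6 interactions were called. After quantile normalization none was. BG642312, the gene with the ninth largest male excess in sesB1, had a called interaction of 2.08 (SE 0.28) that read -1.31 and was not called after quantile normalization.

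Among odorant-binding proteins, some of which are known as parts of the seminal fluid, only a few genes were strongly male-biased. The median of the list was 0.01 in sesB1 and -0.25 in wild type, and 15.0% of all genes were lower in sesB1 females. Of 47 genes, 6 were lower in sesB1 females and 1 higher, against 16 and 0 in wild type, and 7 interactions were called, all positive. Obp51a differed by -6.60, Obp56f by -5.10 and Obp56g by -4.92. The 1 higher member was Obp57a, at 1.36. After quantile normalization 2 interactions were called, with 7 genes lower in sesB1 females and 11 in wild-type females.

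Spermathecal proteases were more female-biased in sesB1 than in wild type. Of 10 genes 8 were higher and 1 lower in sesB1 females, with a median of 5.14, against 7 and 1 and a median of 2.75 in wild-type females, and 7 interactions were called, all positive. The lower member was CG32833, at -2.43. Ser12 read 3.72, 3.98 and 3.87 on the first 3 arrays of sesB1 females, the fourth being missing, and -2.02, -1.82, -1.75 and -1.10 in sesB1 males, against 1.10, 1.24 and 1.32 in wild-type females and -1.67, -1.43 and -1.67 in wild-type males. The gene stood higher in sesB1 females than in any other group, and the males of the genotypes overlapped. Its difference was 5.53 (SE 0.19) in sesB1 and 2.81 in wild type, and the interaction was 2.72 (SE 0.25, adjusted p = 9.65e-06). CG9897 differed by 5.77 in sesB1 and 3.19 in wild type. Send1, the largest of the list in sesB1 at 7.02, had an interaction that was not called, and its value on sesB1 male array 4 was -1.27 against -4.18 to -3.94 on the other male arrays. The interaction was called for 8 of the 10 genes without the arrays that stand apart and for 5 after quantile normalization.

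Called genes of pheromone synthesis and the sex-dimorphic head had the same direction in both genotypes. Fad2, the desaturase of female hydrocarbons, differed by 6.75 in sesB1 and 5.96 in wild type, and eloF, a female elongase, by 5.32 and 4.52. Fad2 was high on sesB1 male array 4 (-1.86) and wild-type male array 2 (-2.60). Without the arrays that stand apart its sesB1 difference was 7.44. Cyp4d21, a male-biased P450 of the head, differed by -3.86 (SE 0.22) and -5.01, and its interaction of 1.14 was lost after quantile normalization. Of 14 genes 2 were higher and 2 lower in sesB1 females, against 2 and 3 in wild-type females. In this list 2 interactions were called, both positive, and none after quantile normalization.

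fit, a female-biased gene of the adult fat body around the brain, was called in sesB1 and not in wild type. fit read 2.94, 2.38, 2.78 and 2.90 in sesB1 females and -1.53, -1.01, -1.05 and -1.39 in sesB1 males, against -0.14, -0.18 and 0.71 in wild-type females and -0.09, 0.13 and 0.09 in wild-type males. The sesB1 females stood above and the sesB1 males below every wild-type array. The difference was 3.99 (SE 0.15, adjusted p = 2.25e-09) in sesB1 and 0.09 in wild type (adjusted p = 0.733), and the interaction of 3.90 (SE 0.28, adjusted p = 8.74e-07) was 5.16 after quantile normalization.

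More midgut proteases were female-biased in sesB1 than in wild type. Of 21 trypsins and Jonah proteases, digestive enzymes of the gut, 7 were higher and none lower in sesB1 females, against 2 higher and 3 lower in wild-type females. The medians were 0.91 in sesB1 and 0.14 in wild type, and 20 of 21 interactions were above 0, of which 6 were called, with Ser6 the 1 called below 0. Jon25Bi read 1.17, 0.79, 1.24 and 0.63 in sesB1 females and -0.60, -0.28, -0.16 and -0.18 in sesB1 males, against -0.81, -0.97 and -0.75 in wild-type females and 0.53, 0.16 and 0.81 in wild-type males. The order of the sexes was opposite in the 2 genotypes, 1.26 (SE 0.15) in sesB1 and -1.34 in wild type, with an interaction of 2.61 (SE 0.24, adjusted p = 6.66e-06). Jon25Bii differed by 1.75 in sesB1 and -0.83 in wild type. After quantile normalization 11 of the 21 interactions were called, all positive. Without the arrays that stand apart 11 genes were higher in sesB1 females, and 8 positive and 1 negative interactions were called. Near-identical copies within this family may share signal on the array.

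Only 3 probesets were called in both genotypes with opposite signs. They were those of Jon25Bi, of Arc1, which encodes a capsid-like protein that carries RNA at synapses (1.24 in sesB1, with an interaction of 2.24), and 1 probeset of CG5326 (1.25 and -1.53), for which the probeset used for the gene differed by 0.92 and was not called. Another probeset of CG5326 differed by 0.27 in sesB1 and 0.26 in wild type, with an interaction of 0.005 that was not called. A total of 29 genes were called in sesB1 and in the interaction and not in wild type, 21 higher and 8 lower in sesB1 females. After quantile normalization the interaction was still called for 17 of the 21 and 6 of the 8. The 21 were led by fit, CG13078 (2.63 in sesB1, 0.39 in wild type), CG33109 (1.98 and -0.89), CG4020 (1.85 and 0.34), Jon25Bii and Jon44E (1.68 and 0.14).

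Among the 8 lower genes Sdic3 stood first. The Sdic genes are tandem copies that encode a dynein intermediate chain of the sperm, so signal of near-identical copies may not be separable. Sdic3 read 0.11, 0.05, -0.29 and 0.36 in sesB1 females and 4.14, 4.08, 4.10 and 4.11 in sesB1 males, against -0.14, -0.05 and -0.21 in wild-type females and -0.36, -0.62 and -0.79 in wild-type males. Only the sesB1 males were high. The difference was -4.05 (SE 0.12) in sesB1 and 0.46 in wild type, with an interaction of -4.51 (SE 0.18, adjusted p = 1.15e-09), whereas Sdic1 differed by -4.58 in sesB1 and -4.74 in wild type.

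The reverse pattern, male-biased in wild type and not or less in sesB1, held the largest interactions. CG12990, on the X chromosome, read -0.05, 0.05, -0.12 and -0.17 in sesB1 females and -0.22, -0.20, -0.06 and -0.25 in sesB1 males, against 0.23, 0.19 and 0.10 in wild-type females and 5.69, 5.55 and 5.71 in wild-type males. The wild-type males alone were high, and the interaction was 5.59 (SE 0.11, adjusted p = 1.57e-13). CG6788, also on the X chromosome, had the same form, with differences of -0.07 in sesB1 and -5.64 in wild type. CG2663 (-1.33 in sesB1, -5.60 in wild type) and CG18301 (-1.17 and -5.39) were male-biased in both genotypes and less so in sesB1. CG30427 followed at -1.45 and -5.16, but the interactions of its 2 other probesets, 0.64 and 0.90, were not called. CG18179 differed by 0.57 in sesB1 and -3.72 in wild type, and there it was the wild-type females that stood low, at -3.52, -3.96 and -3.14.

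Of the 265 probesets called in wild type and in the interaction and not in sesB1, 102 were higher in wild-type females and 163 lower. mei-38, which acts on the meiotic spindle, read 0.43, 0.51, 0.47 and 0.22 in sesB1 females and -0.56, -0.46, -0.50 and -0.43 in sesB1 males, against 3.20, 3.20 and 3.38 in wild-type females and -0.22, -0.31 and -0.42 in wild-type males. Its difference of 0.90 (SE 0.08) in sesB1 passed the p threshold and missed the 2-fold one, and its interaction was -2.68 (SE 0.12, adjusted p = 4.02e-09). Ilp8, an insulin-like peptide, differed by 1.00 in sesB1, just under the threshold, and 3.60 in wild type. Muc12Ea (5.16 in sesB1, 7.77 in wild type), CG15721 (2.52 and 5.10) and Mur11Da (1.97 and 4.50) had called interactions that were not called after quantile normalization. Muc12Ea read 3.60, 3.00, 0.75 and 3.56 in sesB1 females, so array 3 was low for it as for the chorion genes. Cpr67Fb, a cuticle protein gene, was more male-biased in sesB1, at -4.87 against -2.30 in wild type. For phu the sesB1 sexes overlapped, with a difference of -0.48 against 2.29 in wild type.

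Enzymes of tyrosine, glycine and one-carbon metabolism split in both directions. Of 15 genes 3 were higher and 1 lower in sesB1 females, against 6 and 4 in wild-type females, and 4 positive and 3 negative interactions were called. Gnmt, which uses S-adenosylmethionine to methylate glycine, read -0.81, -0.46, -0.51 and -0.67 in sesB1 females and 0.99, 1.21, 1.32 and 0.85 in sesB1 males, against -4.53, -4.28 and -5.11 in wild-type females and 0.46, 0.51 and 0.72 in wild-type males. The wild-type females stood far below all others, and the differences were -1.71 (SE 0.12) in sesB1 and -5.21 in wild type. Tat, Hpd and Faa, of tyrosine breakdown, had called interactions of 1.42, 2.04 and 1.22. Cbs, an enzyme of the transsulfuration route, differed by 1.05 and 2.54, and Ahcy, which hydrolyses S-adenosylhomocysteine, by 1.64 and 2.51. After quantile normalization 1 positive interaction, that of Gnmt at 1.96, and 4 negative ones were called. The positive interactions of Tat, Hpd and Faa were thus not called by that scaling. Cbs in sesB1 was not called without the arrays that stand apart. The larval serum protein gene Lsp2 had no called sex difference in sesB1 (-0.06), against -2.42 in wild type, but its interaction of 2.35 read -0.30 after quantile normalization.

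Small female excesses in the general protein machinery were narrower in sesB1. Of 69 mitochondrial ribosomal proteins 12 were higher in sesB1 females and 42 in wild-type females, none was lower, and the medians were 0.74 and 1.15. mRpL39 differed by 1.64 (SE 0.06) in sesB1 and 2.45 in wild type, and mRpL1 by 1.36 and 2.02. No interaction reached 2-fold, but 66 of 69 were below 0 and 48 had an adjusted p under 0.05, where 21.2% of all genes were negative and 14.1% positive by this rule. After quantile normalization 28 were, against 908 of all 11981 genes, and the medians were 0.71 in sesB1 and 1.14 in wild type. The smaller female excess of these genes was thus present in both scalings. As deposited, the per-array median of the list was 0.37 to 0.47 in sesB1 females and 0.37 to 0.42 in wild-type females. In males it was -0.38 to -0.32 in sesB1 and -0.77 to -0.68 in wild type, so for this list the genotypes differed in the males. Of 26 proteasome subunits none was called in sesB1 and 11 were higher in wild-type females, with medians of 0.59 and 0.86. Of these, 20 negative interactions had an adjusted p under 0.05 as deposited and none after quantile normalization. The per-array proteasome median was 0.11 to 0.39 in sesB1 females and 0.72 to 0.74 in wild-type females as deposited, and the males of the genotypes overlapped.

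Among 41 cytosolic ribosomal proteins 7 were higher and 7 lower in sesB1 females, near the shares of all genes, and the counts were the same in wild-type females. No interaction was called. By the p threshold alone 12 were negative and 1 positive, against 2 and 0 after quantile normalization. The extremes were RpS5b, a copy known from the ovary, at 4.27, RpL10Aa at -5.12 and RpS28-like at -3.85. Of 40 respiratory chain and ATP synthase genes only COX7C was called, at -4.82 (SE 0.11), and its other probeset differed by -0.18. The median of the list was -0.14 in sesB1 and -0.12 in wild type. sesB itself read -0.14, -0.07, 0.04 and -0.14 in sesB1 females and 0.05, 0.03, 0.11 and 0.10 in sesB1 males, and its difference of -0.15 (SE 0.07, adjusted p = 0.0626) was not called, like the -0.17 of wild type. Ant2, the second translocase gene beside it on the X chromosome, read -1.79, -1.73, -1.89 and -1.58 in sesB1 females and 1.78, 1.82, 1.66 and 1.58 in sesB1 males. The sex difference of Ant2, -3.46 (SE 0.08), was smaller than the -4.18 of wild type, with an interaction of 0.72 (adjusted p = 0.000743) that did not reach 2-fold and was 0.17 after quantile normalization.

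Somatic lists with a mild male excess in wild type had less of it in sesB1. Of 12 phototransduction genes of the eye none was called in sesB1 and 8 were lower in wild-type females, with medians of -0.39 and -1.08. chp, a photoreceptor membrane protein, differed by -0.57 and -1.31. Of 17 neuronal genes 1 was lower in sesB1 females (brp, at -1.17, whose 3 other probesets were not called) and 9 in wild-type females, with medians of -0.48 and -1.12. Of 18 muscle genes none was called in sesB1 and 2 were lower in wild-type females, with medians of -0.12 and -0.66. By the p threshold alone 10 eye, 9 neuronal and 11 muscle interactions were positive as deposited, and 0, 1 and 0 after quantile normalization.

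In the remaining lists few genes were called. Of 83 cytochrome P450 genes 2 were higher and 9 lower in sesB1 females, against 6 and 17 in wild-type females, with Cyp6a19 at 4.90 and Cyp312a1 at -4.29 as the extremes, and 8 positive and 1 negative interactions were called as deposited. After quantile normalization 1 positive and 3 negative ones were called. Of 10 antimicrobial peptide genes Def (2.38 in sesB1, 1.11 in wild type) and Drs (1.30 and 1.47) were higher in sesB1 females, and Def had a called interaction of 1.27. Of 10 maltase genes Mal-A8 (-1.20) and Mal-A7 (-1.07) were lower in sesB1 females, and neither was called after quantile normalization or without the arrays that stand apart. No gene of glycolysis, of gluconeogenesis or of the Turandot stress peptides was called.

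The shares of sex-biased genes are given by chromosome as a description, with no test. Of 1869 X-linked genes 22.7% were higher and 12.1% lower in sesB1 females, against 14.9% higher and 15.6% lower of 9947 genes on the large autosomal arms. In wild type the X-linked shares were 31.4% and 14.6%, and the autosomal ones 22.6% and 19.8%. After quantile normalization the sesB1 shares were 25.2% and 13.9% on the X chromosome and 16.9% and 17.5% on the autosomal arms. Among the large arms, 2L held the highest share lower in sesB1 females, 18.9%. Of 65 genes of chromosome 4 only 4 were higher and 2 lower. Of 7 Y-linked genes, which females lack, 2 were called lower in sesB1 females, Pp1-Y2 at -2.17 and ARY at -1.90.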

How the data were processed

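Total RNA of whole flies was hybridized to Affymetrix Drosophila 2.0 arrays. Per the methods the authors normalized raw data in Genespring GX, for which the sources used here give neither version nor summarisation. They deposited log2 values, each probeset relative to its own median. Other deposited cells, 30 of 265328, hold date serials of a spreadsheet (12785 to 41716) and were set missing, 16 of them on sesB1 arrays. Depth does not apply to arrays, and the number of arrays limits the precision. The methods describe triplicate isolations, and all 4 arrays of each sesB1 group were used.

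Of 18952 probesets 183 controls were left out. A current gene was matched for 13549, and 11981 genes could be represented by a probeset naming no other gene. Several per gene were sorted by suffix (_at, _a_at, _s_at, _x_at) and then by identifier, and the first was kept. Each contrast was fitted with limma 3.58.1 (lmFit, eBayes) in R 4.3.3, without a block, with Benjamini-Hochberg adjustment. A planned count of promoter motifs was not run, since no promoter sequences were used here. The fits were tested on simulated data. Class members had to pass the p threshold and an 8-fold difference.

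The members, 34 gene lists and tests were chosen with earlier results of these data known. The genes named were the 10 largest differences in each direction among called genes whose sexes did not overlap, the 8 largest interactions in each direction, the 3 members of each list with the largest differences, sesB and Ant2. Others, such as yl, Jon25Bi, Jon44E, Arc1, CG5326, Femcoat, psd, ndl, krimp, squ, Tat, Hpd, Faa, CG32833, bam, nod, c(2)M, bgcn, Orc1, Orc2, cid, Rpt3R, Sdic1, msl-1, msl-2, tra, fl(2)d, uri, Obp57a, Ser6, CG13078, CG33109, CG4020, Pp1-Y2 and ARY, were named after their values were seen. Alternatives were other scalings, thresholds, models and arrays left out.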

Additional observations from a re-analysis of the deposited data

Results flagged for a closer look

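In groups of 4 arrays, 17 of 256 tests over the named genes found 1 array far from the other 3 by Dixon's ratio, above its 95% critical value. Chance gives about 1 in 20. Array 4 of the sesB1 males was the high one in 14 of the 17, all of them transcripts higher in females, with centred log2 values of -2.40 for Yp1, -2.70 for Yp2, -1.63 for Vm26Aa, -1.83 for Vm34Ca, -2.24 for dec, -3.47 for osk, -3.10 for orb, -3.41 for otu, -3.01 for mtrm, -2.03 for RpS5b, -1.27 for Send1, -1.33 for CG43074, -1.86 for Fad2 and -1.66 for eloF. These span the ovary, the spermatheca, the fat body and the oenocytes, while Cp36 on that array was -6.63, within the range of the other sesB1 males. The part of this array in each result was not tested beyond the values without it. The others were sesB1 male array 2 for Rpn12 (-0.72), sesB1 female array 2 for TpnC41C (-0.17) and sesB1 female array 3 for Gpdh1 (0.16).

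The sex difference of sesB1 flies differed from that of wild-type flies, by the called interaction, for 30 of 129 genes, those the naming rule gave and a few named after their values were seen. Called interactions of other list members stand in the report. More positive in sesB1 were CG12990 (5.59), CG6788 (5.57), CG18179 (4.29), CG2663 (4.27), CG18301 (4.21), fit (3.90), CG30427 (3.71), Gnmt (3.50), Ser12 (2.72), CG5326 (2.70), Jon25Bi (2.61), Jon25Bii (2.59), CG9897 (2.58), Lsp2 (2.35), Arc1 (2.24), BG642312 (2.08), Cyp312a1 (1.81), Obp56g (1.76), Obp56f (1.30), Def (1.27) and Cyp4d21 (1.14). More negative were Sdic3 (-4.51), phu (-2.77), mei-38 (-2.68), Muc12Ea (-2.62), Ilp8 (-2.61), CG15721 (-2.58), Cpr67Fb (-2.57), Mur11Da (-2.54) and Cbs (-1.49).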

How the results depend on the processing

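Centred values allow no check of signal over background. The sesB1 calls, 2280 higher and 2021 lower, stayed between 2194 and 2392 and between 2003 and 2045 when 1 array was left out, and were 2277 and 2019 by the methods' t-test after Benjamini-Hochberg. With each array centred on its median they were 1833 and 2168, so that more probesets were lower than higher. At 1.5-fold 3947 were higher, and with no fold threshold 8180 were higher and 3992 lower, against 6986 and 4571 in wild type. The interaction, 387 positive and 362 negative, gave 192 and 210 after quantile normalization, 1397 and 1539 at 1.5-fold, 2178 and 3005 with no fold threshold, and 723 negative without the arrays that stand apart. When 1 array was left out it gave 367 to 474 positive and 284 to 482 negative, the 284 being without sesB1 female array 3. The class medians in sesB1, 2.90 and -4.24 at 8-fold, were 1.97 and -3.76 at 4-fold, 4.23 and -4.70 at 16-fold, and 3.96 and -3.94 with classes chosen after quantile normalization. Interactions that turned sign were BG642312 (-1.31) and Lsp2 (-0.30) after quantile normalization, and Cp36 and Cp38 at -1.08 and -1.40 without wild-type male replicate 2 and at -1.20 and -1.69 without the arrays that stand apart. When 1 array was left out, the interaction ranged from -1.08 to 1.90 for Cp36 and from -1.40 to 1.62 for Cp38. The cause was not tested. Of 94 called sesB1 differences among the named genes, Cbs, Mal-A7 and Mal-A8 lost their call in at least 1 alternative. Of 30 called interactions, CG15721, Cyp4d21, Muc12Ea, Mur11Da and Obp56f lost their call after quantile normalization. So did BG642312 and Lsp2, whose interactions turned sign. Cyp4d21 and Muc12Ea also lost theirs with an array left out. Same-numbered females and males did not deviate together in sesB1 (r from -0.196 to 0.133, against -0.168 to 0.202 for different numbers). So few correlations cannot exclude a batch shared by arrays of the same number. With the replicate number as a block 2280 and 2020 probesets were called in sesB1 and 400 and 363 interactions. Reading the classes without those arrays, and wild type without male array 2, was added after seeing the data.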
